A study of Mus musculus with 2 samples.

Results

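Mir139 (ENSMUSG00000065446.1) is a miRNA gene inside an intron of Pde2a. It is 1 gene of 2202 annotated miRNA genes, taken by its name and chosen by its sense reads scaled to those of all miRNA genes in both libraries. Its levels are therefore given as a description, with no test. MicroRNA sequencing measured RNA below 30 nucleotides from the adrenal gland of adult male mice, 8 to 10 months old, of the strain labelled 5xFAD/CAST. That label joins a transgenic Alzheimer's disease model with a wild-derived strain, and the labels give neither the transgene status of these animals nor any treatment. There was 1 group with 2 libraries, labelled biological replicates 1 and 2, which have separate sample records and the same donor record. Whether they come from separate animals is not given, so the spread between them may be partly technical.

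miRNA genes are transcribed as long precursors, from which a hairpin is cut and then trimmed to short arms that guide silencing complexes to messenger RNAs through the seed, the bases 2 to 8 of the arm. A miRNA in an intron can be made from the transcript of its host gene. Pde2a encodes a phosphodiesterase that degrades cyclic AMP and cyclic GMP and is stimulated by cyclic GMP. In the adrenal gland it is known from the zona glomerulosa, the outer layer of the cortex that makes aldosterone, where in cattle it links atrial natriuretic peptide to lower aldosterone output. In human cancers miR-139-5p is described as a tumour suppressor that targets the receptor of insulin-like growth factor 1. Messenger RNA was not measured here, so no level of Pde2a or of a target stands beside the miRNA.

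The sequences below show what the reads assigned to Mir139 can hold. They are those of RefSeq on GRCm38.p6, plus strand, at chr7:101475376-101475443, written 5′ to 3′. Capitals mark the mature arms in the hairpin and the seed in each arm.
Mir139 hairpin: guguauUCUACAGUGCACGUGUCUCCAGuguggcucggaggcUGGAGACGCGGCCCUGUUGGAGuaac
mmu-miR-139-5p: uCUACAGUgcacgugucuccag
mmu-miR-139-3p: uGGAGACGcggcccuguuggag

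The hairpin of 68 bases matched that of GENCODE M21 exactly. Its arms are 22 bases each, with 14 bases between them. RNAfold predicted a free energy of -35.6 kcal/mol and 25 base pairs, 19 of them between the arms. The GC content was 58.8% for the hairpin, 54.5% for the 5p arm and 68.2% for the 3p arm. A count in the deposited tables belongs to the whole hairpin, so the level of each arm is not known.

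No other sequence in the RefSeq table had a Mir139 seed at the seed position. The table is incomplete, since it lists no 3p arm of Mir375 or Mir23b, for example. Of its 1677 other mouse mature sequences, 0 matched miR-139-5p at bases 2 to 8 and 0 matched miR-139-3p there. Over bases 2 to 7, 1 other sequence matched the 3p arm, miR-6397. The longest run shared by miR-139-5p and any other listed mature sequence was 9 bases, found in miR-17-5p and miR-770-5p. For miR-139-3p it was 8 bases, found in 5 sequences. In miR-5114 and miR-7078-5p, which are among them, the run holds the seed letters of the 3p arm at another position. The lines below show 1 sequence of each kind, with capitals for bases 2 to 7 of miR-6397 and for the shared runs of the others.
mmu-miR-6397: uGGAGACuuucaguggaguga
mmu-miR-17-5p: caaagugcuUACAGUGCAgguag
mmu-miR-5114: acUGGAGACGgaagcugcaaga

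Neither arm occurred in an annotated transcript of another gene, on either strand, among 141767 transcripts. The hairpin shared no 20 bases with that of any other miRNA gene. Multimapping reads were assigned to no gene and made up 30.3% and 32.1% of the reads of replicates 1 and 2. Among annotated transcripts no second source of Mir139 reads was found, whereas introns and the space between genes were not searched.

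The locus lies on the plus strand, the strand of Pde2a (ENSMUSG00000110195.1, chromosome 7 at 101421691 to 101512827). Of the 12 annotated Pde2a transcripts, 10 span the hairpin within an intron, and the other two start downstream of it. In Pde2a-201, a protein-coding transcript with 31 exons, it lies in intron 2, which is 29902 bases long. The nearest exon of that transcript upstream is 23907 bases away and the nearest downstream 5927 bases, and the transcript starts 53685 bases upstream of the hairpin. In Pde2a-204, which begins at an inner start, the distance from the start is 24856 bases. A longer protein-coding gene model, Gm45837, also spans the hairpin on the same strand and overlaps Pde2a, so the annotation gives 2 hosts. The other miRNA genes within 3 megabases that had reads were Mir3102, 593070 bases upstream at 203 ± 47.3 CPM, and Mir326, 1923107 bases upstream at 65.1 ± 1.31 CPM (SD, n = 2 for both). CPM is the sense count scaled to 1000000 sense reads of all miRNA genes in the library.

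Mir139 held 100370 reads in replicate 1 and 86807 reads in replicate 2, of 6783227 and 3084602 sense miRNA reads. This was 14797 CPM in replicate 1 and 28142 CPM in replicate 2. The level in the second library was thus higher, although its depth was the lower one. As a share of miRNA reads it was 1.48% (Wilson 95% interval 1.47 to 1.49) and 2.81% (2.80 to 2.83), and these intervals cover counting error only. The mean was 21469 ± 9437 CPM (SD, n = 2). The SD between the replicates was far wider than the counting intervals, so depth did not limit the precision of this gene.

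Reads of Mir139 were found on the strand of the gene. The opposite strand held 0 reads in both libraries, which allows up to 0.442 CPM in replicate 1 and 0.973 CPM in replicate 2. The count for both strands together equalled the sense count in each library, so no read was set aside as ambiguous with a gene on the other strand.

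By mean CPM Mir139 ranked 14 among the 2202 genes, of which 334 exceeded 2 CPM in both libraries. Its rank was 19 in replicate 1 and 11 in replicate 2. Next above it stood Mirlet7d, a let-7 gene, with 26990 and 30205 CPM in replicates 1 and 2. Mir143, known from vascular smooth muscle, had 28851 and 25009 CPM, and Mir127, of the imprinted Dlk1-Dio3 region, 26749 and 22081 CPM. All 3 were above Mir139 in replicate 1, and only Mirlet7d of the 3 was above it in replicate 2.

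Next below came Mir10b, in the Hoxd region, with 27799 and 14638 CPM. Mir322, of an X-linked cluster, had 22397 and 17849 CPM, and Mir379, of the Dlk1-Dio3 region, 19503 and 15644 CPM. These 3 exceeded Mir139 in replicate 1 and stood below it in replicate 2. Mir10b was its mirror image, since the mean levels were nearly equal and the replicates were in opposite order.

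A pair of genes was taken as ordered only where both libraries ordered them alike and the gap in each library was larger than the replicate difference of either gene. The replicate difference of Mir139 was 13345 CPM, so the rule asked for a wide gap. Of the 19 other genes of the top 20, 6 stood above Mir139 by this rule and 13 were not separated from it. The 6 were Mirlet7g, Mir10a, Mirlet7b, Mir375, Mir23a and Mir23b. Mir126a, the endothelial miRNA gene, was higher in both libraries, yet its own replicate difference was larger than the gap. Over all genes, 2147 stood below Mir139 beyond the spread and 48 were not separated. The highest of those below was Mir1839, with a mean of 1348 CPM.

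**Figure D1:**
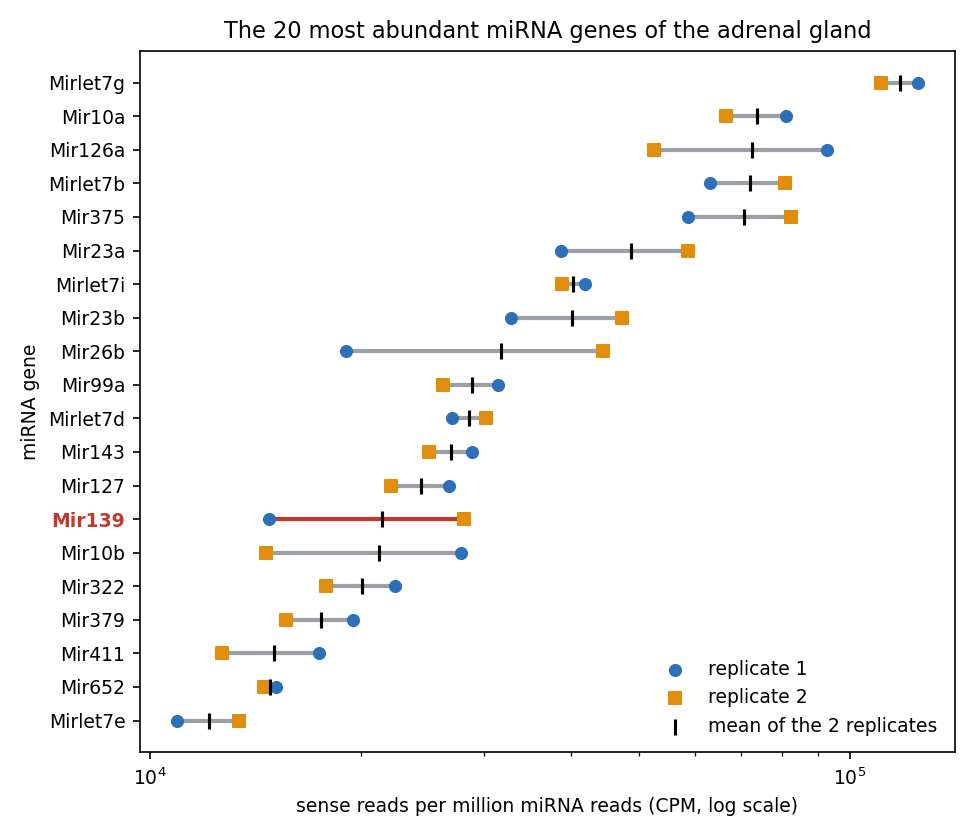
CPM of the 20 most abundant miRNA genes on a log scale, in order of the mean, with a circle for replicate 1, a square for replicate 2 and a bar for the mean of both. Mir139, in red, runs from 14797 CPM in replicate 1 to 28142 CPM in replicate 2 and overlaps the ranges of its neighbours in the order.

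Among miRNA genes in introns, Mir139 was near the top. Of the 2202 genes, 741 lay inside a protein-coding gene of the same strand without touching an exon of that gene, and 116 of these exceeded 2 CPM in both libraries. Mir139 ranked 5 by mean among the 741. It held 3.69% of the reads of these genes in replicate 1 and 7.25% in replicate 2. All intronic genes together held 40.1% and 38.8% of miRNA reads, so the replicates differed far less in this total than in Mir139.

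The 4 intronic genes above it by mean were Mirlet7g in Wdr82, Mir126a, Mir23b in 2010111I01Rik and Mir26b in Ctdsp1. Mirlet7g, at 124993 and 110750 CPM in replicates 1 and 2, stood above Mir139 beyond the replicate spread. Mir23b, at 32843 and 47239 CPM, did too, although it shares 20 bases with Mir23a and its count is a lower limit. Mir26b, at 19051 and 44353 CPM, was not separated from Mir139. Mir126a counts as intronic through the gene model Gm20532, and it also overlaps an exon of another gene of its strand. Without genes that do so, a choice made after seeing the data, Mir139 ranked 4 of 710.

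Below Mir139 in this order were Mir10b in Hoxd3 and Hoxd4, Mir652 in Tmem164 and Mirlet7e in Spaca6. Mir652 had 15161 and 14573 CPM and Mirlet7e 10933 and 13395 CPM. Both differed less between the libraries than Mir139 did, and neither was separated from it. Of other miRNA genes in introns of phosphodiesterase genes, a group chosen after seeing the data, Mir582 in Pde4d had 0.737 and 0.973 CPM. Mir1904 in Pde4d and Gm44413 in Pde1c had 0 reads in both libraries. Mir139 was chosen for its level, so its contrast with these genes is no result about phosphodiesterase hosts.

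**Figure D2:**
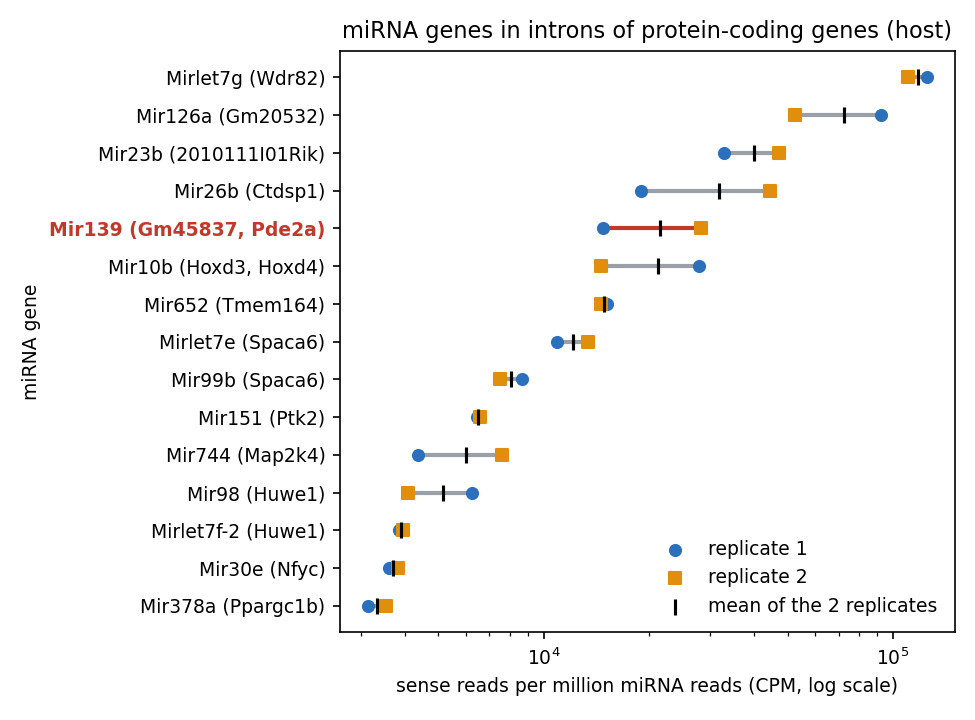
CPM of the 15 most abundant intronic miRNA genes on a log scale, with host genes in brackets, a circle for replicate 1, a square for replicate 2 and a bar for the mean of both. Mir139, in red, ranks 5 by mean, and it and Mir26b are higher in replicate 2 while Mir126a and Mir10b are higher in replicate 1.

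Mir139 was 1.90-fold higher in replicate 2 than in replicate 1. The log2 difference of CPM + 1 was 0.93, with an exact 95% interval of 0.91 to 0.94 for counting error alone. Of the 70 genes with a mean of at least 1000 CPM, 7.14% differed at least 2-fold between the replicates in either direction and 1.43% were higher in replicate 2 by that much. Mir139 did not reach 2-fold. Even so, only 5 of the other genes among the 70 had as large an absolute difference, and the median absolute log2 difference of the 70 was 0.26.

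Of these 5, Mir26b was higher in replicate 2, with a log2 difference of 1.22. The others were lower there. They were Mir451a at -1.46, Mir34a at -1.09, Mir29c at -1.12 and Mir107 at -2.10, and Mir29c and Mir107 share 20 bases with other hairpins. Of the 173 genes with a mean of at least 100 CPM, 11% differed at least 2-fold and 6.36% were higher in replicate 2 by that much. Among them, 20 of the other genes had as large a difference as Mir139, 12 of them in its direction. The replicate difference of Mir139 therefore stood out less among moderately abundant genes than among abundant ones.

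The difference depended on scaling in size and not in direction. The log2 difference was 0.83 with TMM scaling and 0.79 with DESeq2 size factors. The median log2 difference of the genes of at least 100 CPM was 0.059 as scaled here, -0.043 with TMM and -0.078 with DESeq2 size factors. The distance of 0.87 between Mir139 and that median is the same under each by construction, since a scaling shifts every gene alike, and is no check.

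**Figure D3:**
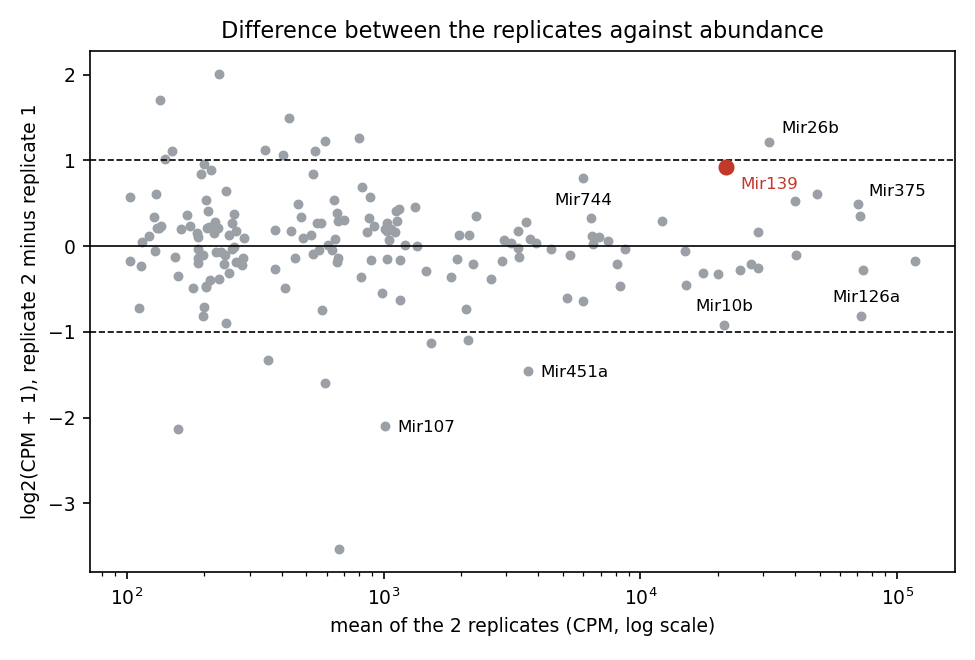
Log2(CPM + 1) of replicate 2 minus replicate 1 against the mean CPM on a log scale, with 1 point for each of the 173 genes of at least 100 CPM and dashed lines at a 2-fold difference. Mir139, in red at 0.93, lies with Mir26b above most of the other abundant genes, and Mir10b lies as far below the middle line.

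With 2 libraries, likeness of pattern can be described only as likeness of the replicate difference. Among the genes of at least 1000 CPM, the 5 closest to Mir139 were Mir744, Mir26b, Mir23a, Mir23b and Mir375. Mir744, in an intron of Map2k4, had 4368 and 7590 CPM in replicates 1 and 2, a log2 difference of 0.80. Mir23a and Mir23b, which share 20 bases, had differences of 0.60 and 0.52, and Mir375, known from neuroendocrine cells, had 0.49. All 5 were higher in replicate 2, which follows from how they were picked. They lie on chromosomes 1, 8, 11 and 13, none of them on that of Mir139.

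The arms of the closest pair are printed to show that they differ from Mir139 in the seed, which is in capitals. Both arms of Mir744, Mir26b and Mir23a were compared, with the 5p arms of Mir375 and Mir23b, the only ones listed for these genes. Of these 8 arms, 0 had a seed of Mir139.
mmu-miR-744-5p: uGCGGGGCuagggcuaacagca
mmu-miR-744-3p: cUGUUGCCacuaaccucaaccu
mmu-miR-26b-5p: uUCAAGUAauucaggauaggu
mmu-miR-26b-3p: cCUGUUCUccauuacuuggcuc

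Markers of cell types were compared with Mir139 because the whole gland holds cortex, medulla, vessels and blood. No listed miRNA gene marks the cortex. In tissue RNA, fewer cells of a type and less RNA per cell cannot be told apart. Mir126a, the marker of endothelium, had 92610 and 52519 CPM in replicates 1 and 2, so it was lower where Mir139 was higher. The ratio of Mir139 to Mir126a was 0.160 in replicate 1 and 0.536 in replicate 2.

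Of the listed neuroendocrine genes, which mark the medulla, Mir375 and Mir7-2 were higher in replicate 2, as Mir139 was, and Mir7b and Mir7-1 were not. All 4 reached 100 CPM, and they summed to 63615 and 87243 CPM, a log2 difference of 0.46. Nearly all of that sum was Mir375, at 58717 and 82443 CPM. Mir7b had 4535 and 4423 CPM. Mir7-1 had 250.0 and 233 CPM and Mir7-2 had 113 and 143 CPM, and these share 20 bases with each other. The ratio of Mir139 to Mir375 was 0.252 and 0.341, so Mir139 exceeded the difference of Mir375 as well.

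The listed smooth muscle and pericyte genes, Mir143 and Mir145a, summed to 29493 and 25630 CPM. The erythroid genes Mir451a and Mir144 summed to 5542 and 2136 CPM, with Mir144 nearly level at 191 and 187 CPM. Both sums were lower in replicate 2, where Mir139 was higher, with log2 differences of -0.20 for smooth muscle and pericytes and -1.37 for the erythroid genes.

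Of the 4 leukocyte genes, 3 reached 100 CPM, and the list summed to 610 and 693 CPM. Mir142 had 249 and 282 CPM, Mir150 had 162 and 191 CPM, and Mir155 had 160 and 147 CPM. Mir223, known from myeloid cells, had 38.3 and 73.6 CPM, a log2 difference of 0.92 that was nearly that of Mir139. The leukocyte markers thus differed among themselves.

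Pde2a is also known from neurons. Of the 7 listed neuronal genes, 1 reached 100 CPM, Mir137 at 713 and 1057 CPM, and the list summed to 713 and 1058 CPM, a log2 difference of 0.57. Mir9-3 had 0.147 and 0.324 CPM. The defining Mir9-1, Mir9-2, Mir124a-1, Mir124a-2 and Mir124a-3 had 0 reads in both libraries. These 5 and Mir9-3 share 20 bases with other hairpins, so reads common to such hairpins were not counted. A count of 0 therefore sets no limit for the 5, and the level of Mir9-3 and the list sum are lower limits. The part of the medulla, vessels, blood or nerve in the difference of Mir139 was not tested.

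Markers of other organs without near-identical copies were far below Mir139 in either library. The liver marker Mir122 had 257 and 57.7 CPM, the kidney marker Mir192 had 29.2 and 28.5 CPM and the striated muscle marker Mir206 had 3.69 and 3.57 CPM. The kidney list summed to 45.3 and 39.5 CPM, with Mir194-2 at 16.1 and 11.0 CPM. Mir194-2 shares 20 bases with Mir194-1, so its level and the kidney sum are lower limits. Mir194-1 had 0 reads in both libraries, as did Mir1a-1, Mir1a-2, Mir133a-1 and Mir133a-2, the other 4 of the 5 striated muscle genes. All of these zeros belong to genes that share 20 bases with other hairpins, so they set no limit.

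**Figure D4:**
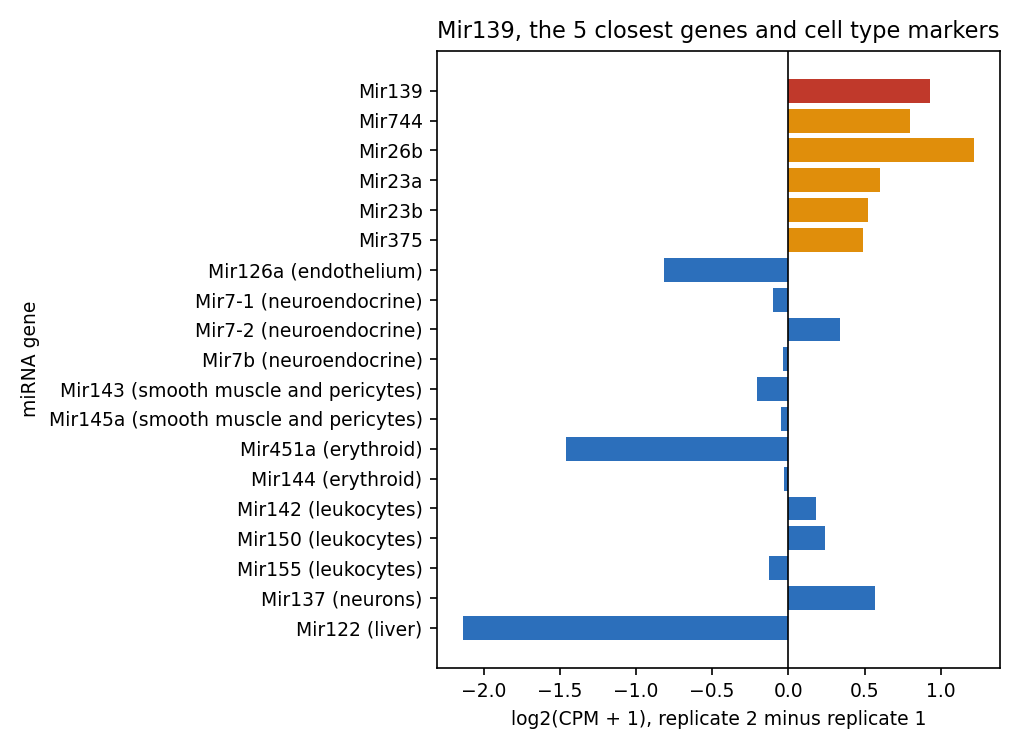
Bars give log2(CPM + 1) of replicate 2 minus replicate 1 for Mir139 (red), the 5 genes closest to it in that value (orange) and the cell type markers of at least 100 CPM (blue, with the cell type in brackets). Mir139 at 0.93 is above every marker drawn. Mir126a, Mir451a and Mir122 have the lowest values of the markers, and several others are also lower in replicate 2.

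Mir139 was far more abundant than most miRNA genes reported in work on corticotropin, angiotensin II or steroid enzymes of adrenal cells. Mir139 was chosen for its level, so this contrast is no result about these genes. Of the 15 listed genes, 12 reached 100 CPM, or 80.0% against 7.86% of all annotated genes. The gap between these shares is no result, since the list was chosen with earlier results of these data known. Most annotated genes were also hardly read, as 334 of the 2202 exceeded 2 CPM in both libraries. The median of the 12 listed genes that reached 100 CPM was 363 CPM, beside 640 CPM for all genes of at least 100 CPM. The highest were Mir125a, at 5700 and 7134 CPM in replicates 1 and 2, and Mir21a, at 3090 and 3166 CPM. Neither was separated from Mir139 by the rule, although both were lower in each library.

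The other 13 stood below Mir139 beyond the replicate spread, as did 2147 of all 2202 annotated genes. Mir27a, which shares 20 bases with Mir27b, had 598 and 732 CPM, and Mir214 had 355 and 831 CPM. Mir132, a gene driven by cyclic AMP signalling, had 547 and 514 CPM. The median log2 difference of the 12 was 0.31, beside 0.059 for all genes of at least 100 CPM. Of the 12, 11 were higher in replicate 2, beside 93 of all 173. With DESeq2 size factors the median was 0.17, beside -0.078 for all genes, and 8 of the 12 were higher, beside 72 of the 173. Of these 12 genes, 1, Mir214, differed at least 2-fold, beside 11% of all 173. Near-identical hairpins make the counts of 5 of the 15 lower limits.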

How the data were processed

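The authors deposited, for each of 2 libraries, a table of read counts per miRNA gene in 3 columns, for both strands, sense and opposite strand. Per the description deposited with each table, reads were placed on mm10 with GENCODE M21. Neither aligner nor trimming nor mismatch limits are stated in the labels or files used here. The columns have no header and were read from the layout, which is that of STAR gene counts. Multimapping reads were assigned to no gene, counts are per hairpin, and a CAST variant in a mature sequence could lower a count. Tables held 13209343 and 6482170 reads, of which 51.4% and 47.6% were sense miRNA reads.

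Sense counts were scaled to CPM without the mapping lines, and differences used a pseudocount of 1 CPM. With 1 group there was no contrast, so no test was run. Intervals are Wilson or exact, at 95%, a count of 0 allows 3 reads, and none of these covers more than counting error. Alternatives were TMM (edgeR 4.0.16), size factors (DESeq2 1.42.0), scaling to all reads, the column for both strands, genes without shared 20 bases, a minimum of 10 counts and a pseudocount of 10 CPM. Of the scalings, only TMM was tested on simulated counts, which held counting error and no replicate spread. RNAfold was version 2.7.2. Mir7a-1 and Mir7a-2 of the list were matched as Mir7-1 and Mir7-2 by synonym.

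Named are Mir139, 3 genes on each side of it by mean CPM, the 5 closest in replicate difference, the 5 highest intronic genes, seed mates, the 4 highest of the adrenal list and all markers. Other genes named, such as Mir132, Mir652, Mirlet7e and Mir1839, were chosen after their values were seen. The gene and the lists were chosen with earlier results of these data known.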

Additional observations from a re-analysis of the deposited data

How the results depend on the processing

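The mean of Mir139 stayed within 1 SD of 21469 CPM under 5 alternatives, from 21177 CPM with DESeq2 size factors to 24818 CPM without genes that share 20 bases. That SD was wide, so this is a weak check. TMM and DESeq2 size factors shift the 2 libraries in opposite directions by construction. Under these scalings the mean could hardly move, so they are no check of it. Scaled to all reads of the tables the mean of Mir139 was 10495 on the same scale, since the total then holds unmapped and multimapping reads. Its replicate log2 difference of 0.93 left the counting interval with the column for both strands (0.86), without genes that share 20 bases (0.98), with TMM (0.83), with DESeq2 size factors (0.79) and scaled to all reads (0.82), in the same direction each time. A minimum of 10 counts and a pseudocount of 10 CPM left it within that interval. The rank by mean was 12 without genes that share 20 bases and 14 with the column for both strands or a minimum of 10 counts. Leaving out each replicate in turn gave 14797 to 28142 CPM, ranks of 11 to 19 among all genes and ranks of 5 to 7 among intronic genes. The number of the top 20 not separated from Mir139 was 13 to 15 under all 6 alternatives, and the adrenal list had 8 to 12 genes of at least 100 CPM under its 4. The 8 came from leaving out genes that share 20 bases, which took 5 of the 15 listed genes out. With 2 libraries, replicates limit these values more than depth does. No paired analysis was possible because there is 1 group.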
